A study of Setaria viridis with 26 samples.

Results

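*SvMads50* (Sevir.9G565033) and *SvMads56* (Sevir.9G347400) are a pair of MADS-box genes of the grass *Setaria viridis*, labelled here as *SOC1-like*. For *SvMads50* the gene annotation does not show this label. They were taken by locus identifier from the node list of a wild-type inflorescence co-expression network, in which each has 1 transcript, so that they are 2 of 25298 genes. *SvMads50* belonged to the turquoise module and had listed edges to 8311 genes, or 32.9% of the 25297 others. *SvMads56* belonged to the cyan module and had listed edges to 4804 genes, or 19.0% of the others. The pair was joined by an edge of weight 0.113, and 94.6% of the partners of *SvMads56* were also partners of *SvMads50*. Such overlap was not particular to the pair. The MADS-box gene *SvMads34*, with 6402 edges, shared 4554 partners with *SvMads56*, beside 4543 for *SvMads50*.

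MADS-box genes encode transcription factors that bind DNA as dimers and larger complexes, and they control flowering time, meristem identity, and floral organ identity in plants. In Arabidopsis, *SOC1* integrates signals from photoperiod, vernalization, gibberellin, and age, and promotes the floral transition. In rice, *OsMADS50* promotes flowering, whereas *OsMADS56* delays it under long days.

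The study generated RNA-seq from pooled, hand-dissected inflorescence primordia of *ful2* mutant seedlings, which are mutated in the *AP1/FUL-like* gene *SvFul2* (9-10 DAS, 15 DAS, and 21 DAS; DAS, days after sowing) and of wild-type seedlings (8-9 DAS, 10-11 DAS, and 17 DAS), all in the A10.1 background, with 4 replicates for each of the 6 groups. Plants for this RNA-seq were grown under short days. A further 2 DNA samples came from the *ful2* mutant. No *ful2* sample entered the network. It was built from 10 of the 12 wild-type libraries, after 2 had been removed as dissimilar, together with 23 wild-type libraries of an earlier study covering 6 stages from 10 to 18 DAS. The network therefore describes wild-type primordia only, and whole primordia were sampled, so that fewer cells expressing a gene and less RNA per cell cannot be told apart. By the days given in the paper's methods, this study and the earlier study had no sampling day in common. A difference between the studies therefore cannot be told apart from a difference between their stages, and either can enter the weights.

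The measure is the topological overlap of a gene pair, a number between 0 and 1 that grows with the correlation of the 2 genes and with the neighbours they have in common. The network is signed, so that genes of opposite expression are not joined. Listed weights ran from 0.02 to 0.393, with a median of 0.0412 over 43548751 gene pairs, and a pair without a listed edge has an unknown weight below about 0.02. Each weight is 1 value over all libraries. It has no replicate error, no test between conditions could be made, and the depth of single libraries was not used here. Shared partners raise the topological overlap of a pair by definition, so that the weight of an edge and the number of common partners are not separate measurements.

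The label of the pair was checked against the deposited gene annotation. *SvMads56* carries 19 GO terms. They rest in part on matches to the MADS-box and K-box domains and on a reciprocal best match to Arabidopsis *AGL19*, a member of the *SOC1* clade that promotes flowering after vernalization. *SvMads50* carries 10 GO terms, of which 7 are shared with *SvMads56*, and the only matches recorded for it are to the MADS domain. No reciprocal best match stands behind the annotation of *SvMads50*, so that the files place it among MADS-box genes but do not show that it is *SOC1-like*. A further gene, Sevir.9G565200 in cyan, has a K-box match and the same 19 terms as *SvMads56*. Its identifier lies close to that of *SvMads50*, with 2 annotated identifiers between them. Whether reads were shared between these genes was not tested.

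The edges of *SvMads50* and *SvMads56* went to overlapping parts of the network. Of the 26 modules, *SvMads50* had partners in 22 and *SvMads56* in 20. *SvMads50* was linked to 97.8% of the other turquoise genes, 86.8% of cyan, 65.2% of brown, 62.8% of lightgreen, 61.1% of midnightblue, and 58.5% of grey60. *SvMads56* was linked to 97.1% of the other cyan genes, 56.6% of grey60, 56.2% of turquoise, 54.7% of lightgreen, 41.6% of midnightblue, and 41.2% of tan. These shares stand against 32.9% of all genes for *SvMads50* and 19.0% for *SvMads56*. Outside their own modules, the genes differed most in brown, where 65.2% were partners of *SvMads50* and 23.6% of *SvMads56*, in lightcyan (30.6% and 0%), and in lightyellow (33.2% and 1.75%). *SvMads56* had the higher share in the small darkgrey module, with 15 of 91 genes against 3 for *SvMads50*, and in darkorange, with 13 of 70 genes against 4. In magenta, the module of *SvFul4* and *SvMads51*, *SvMads50* had 1 partner among 1260 genes and *SvMads56* had none.

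**Figure D1:**
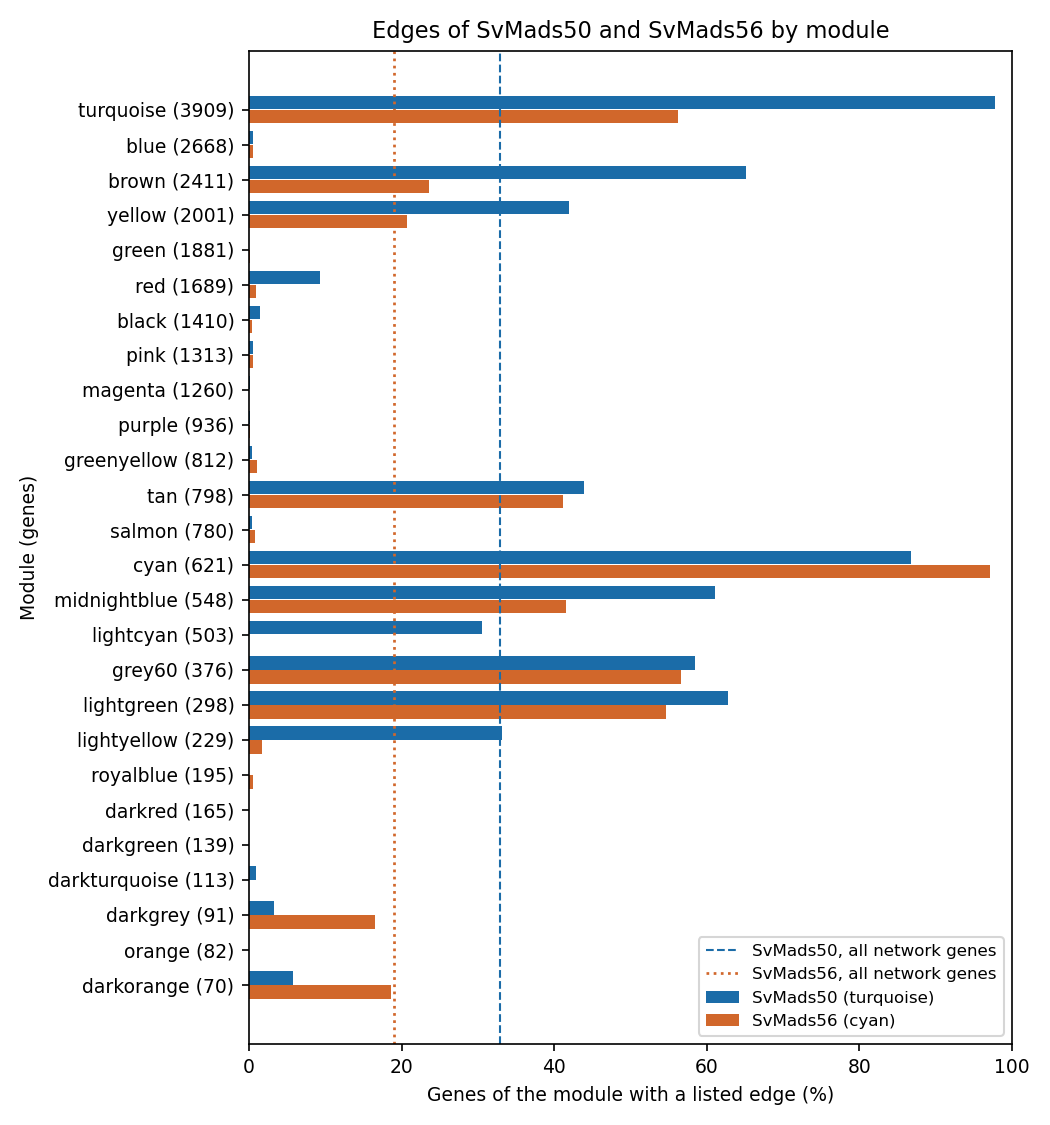
Share of the genes of each module (number of genes in parentheses) with a listed edge to *SvMads50* or *SvMads56*, in percent; vertical lines give the shares over all network genes, 32.9% and 19.0%. Both genes lie above their lines in turquoise, brown, yellow, tan, cyan, midnightblue, grey60, and lightgreen, and are near 0 in blue, green, pink, magenta, and purple.

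The pair differed in how their edges were spread. *SvMads50* ranked 507 of 25298 genes by number of edges, against a median of 3069 edges per gene, and *SvMads56* ranked 6144. Own-module genes made up 46.0% of the edges of *SvMads50* and 12.5% of those of *SvMads56*, which belongs to a module of 621 genes against 3909 in turquoise. The difference was not seen among edges in the top 10% of all listed weights, where the own-module shares were 72.4% for *SvMads50* and 71.9% for *SvMads56*. Weights of *SvMads50* had a median of 0.0615, an interquartile range of 0.0375 to 0.0943, and a maximum of 0.198. Those of *SvMads56* had a median of 0.0372, an interquartile range of 0.0269 to 0.0579, and a maximum of 0.223. Thus *SvMads56* had fewer and mostly lighter edges, but the heaviest single edge of the pair.

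Within their modules the order was the other way round. Intramodular connectivity, the sum of weights to genes of the own module, was 322.0 for *SvMads50* against a turquoise median of 195.0 and a maximum of 739.0. This placed it at rank 1109 of 3909, in the upper 28.4% of the module. For *SvMads56* it was 56.2, against a cyan median of 20.5 and a maximum of 67.3, which placed it at rank 14 of 621, in the upper 2.25%. Among 39 MADS-box genes of the network, ranked by this position within their own modules, *SvMads50* was at place 13 and *SvMads56* at place 1. By number of edges, *SvMads50* was at place 3 of the 39 and *SvMads56* at place 12.

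**Figure D2:**
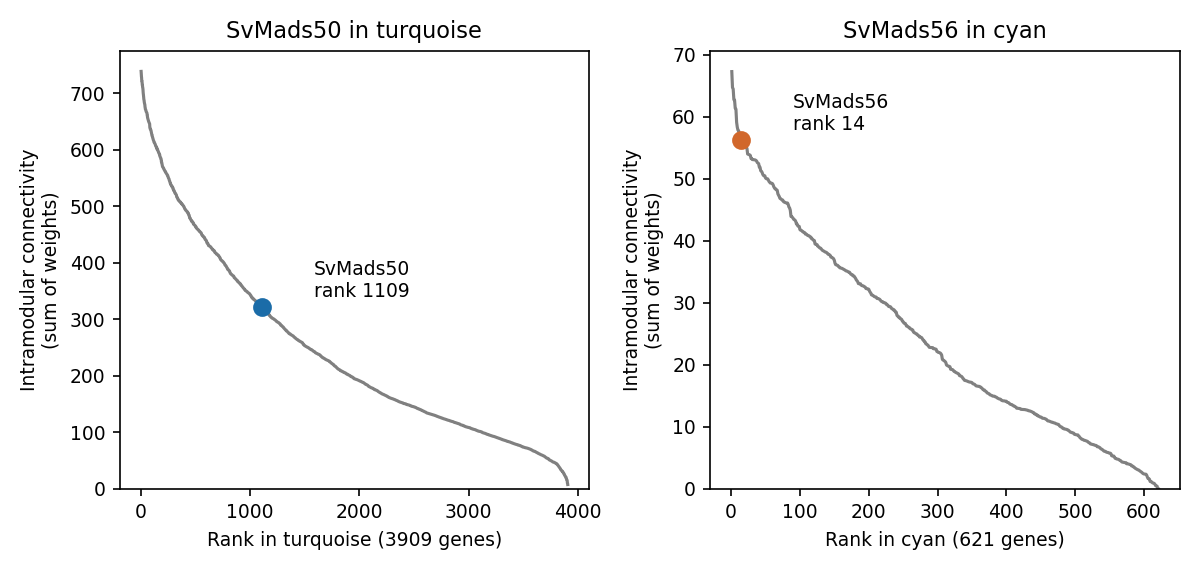
Intramodular connectivity (sum of edge weights to genes of the same module) of every gene of turquoise (left) and cyan (right), in order of rank. The points mark *SvMads50* at rank 1109 of 3909 and *SvMads56* at rank 14 of 621.

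*SvMads50* also reached further into cyan than most turquoise genes. It was linked to 539 of the 621 cyan genes (86.8%), whereas the median turquoise gene was linked to 28.2% of them, and *SvMads50* ranked 65 of 3909 in this respect. *SvMads56* was linked to 2196 of the 3909 turquoise genes (56.2%), against 28.1% for the median cyan gene, at rank 123 of 621. Over the modules as a whole, 33.3% of turquoise and cyan pairs were listed. Both genes also had more edges in all than the median gene of their module. *SvMads50* had 8311 against 4676 in turquoise, and *SvMads56* had 4804 against 2505 in cyan. How far the reach into the other module follows from this was not tested.

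The edge between *SvMads50* and *SvMads56*, at 0.113, was heavier than 91.5% of all listed edges. It was heavier than 86.0% of the edges of *SvMads50*, at rank 1162, and than 94.4% of those of *SvMads56*, at rank 271. Both genes had an edge to 4543 genes (18.0% of the other network genes), which are 54.7% of the partners of *SvMads50* and 94.6% of those of *SvMads56*. Some other MADS-box genes shared similar numbers of partners with *SvMads56*, 4554 for *SvMads34* and 4380 for Sevir.6G230900. Apart from the pair itself, 3767 genes were joined to *SvMads50* alone, with a median weight of 0.0418, and 260 to *SvMads56* alone, with a median weight of 0.0265. The genes of *SvMads50* alone lay mainly in turquoise (1628), brown (1006), and yellow (448). Those of *SvMads56* alone lay mainly in tan (84) and cyan (64).

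Among the shared partners, 81.3% were joined more heavily to *SvMads50*. The 848 joined more heavily to *SvMads56* included 401 of the 538 shared cyan genes but 30 of the 2195 shared turquoise genes. The weights to both genes were weakly related over the shared partners, with Pearson's r of 0.26 and Spearman's rho of 0.28 over 4543 genes, which share all libraries and are not independent. The heaviest parts of the neighbourhoods were mostly separate. Of the 100 heaviest partners of each gene, 5 were common to both, 82 of those of *SvMads50* were in turquoise, and 83 of those of *SvMads56* were in cyan.

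**Figure D3:**
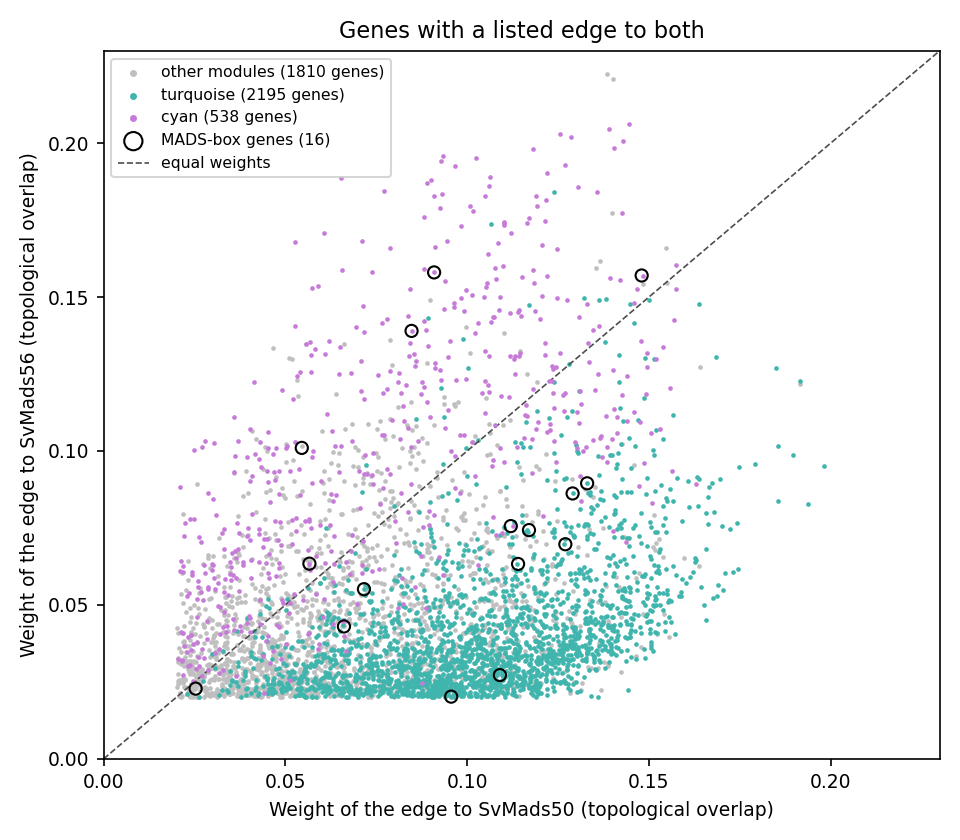
Weight of the edge to *SvMads50* (horizontal) and to *SvMads56* (vertical) of the 4543 genes with a listed edge to both, coloured by module; circles mark 16 MADS-box genes and the dashed line equal weights. Turquoise genes lie mostly below the line and cyan genes mostly above it.

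The heaviest partner of *SvMads50* was Sevir.8G174100, with a weight of 0.198 to *SvMads50* and 0.095 to *SvMads56*. Its annotation includes a match to the GTPase domain of the GB1/RHD3 family. It was followed by Sevir.6G171900 (0.194), which has a helix-loop-helix fold typical of bHLH transcription factors, Sevir.4G285500 (0.192), and Sevir.2G192600 (0.191), which was the only brown gene among the 10 heaviest. Of the others, Sevir.5G246000 (0.19) has a homeodomain-like fold and carries the term flower development, and Sevir.9G508000 (0.179) has a homeobox. Sevir.9G086800 (0.186) has a match to the COBRA family, whose plant members act in cell wall assembly, and Sevir.5G264000 (0.175) has a CorA magnesium transporter domain. Sevir.5G197500 and Sevir.8G255700 (both 0.185) have no domain match in the annotation, and neither have Sevir.4G285500 and Sevir.2G192600. Weights of these 10 genes to *SvMads56* were lower, from 0.0829 to 0.127. The 10 genes had between 8307 and 9120 edges each, and all 45 pairs among them had a listed edge, with a median weight of 0.232 that exceeds every edge of *SvMads50*.

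The heaviest partners of *SvMads56* were a pair of midnightblue genes. Sevir.2G379700 (0.138 to *SvMads50* and 0.223 to *SvMads56*) encodes a homeobox protein whose reciprocal best match in Arabidopsis is *HB21*, a class I homeodomain-leucine zipper gene known to act in bud dormancy. Sevir.6G014200 (0.221) has no domain match. The other 8 were in cyan and all ranked among the 12 most connected genes of that module. They included the C2H2 zinc finger genes Sevir.2G209800 (0.206) and Sevir.2G222600 (0.198), the Aux/IAA-family gene Sevir.9G095600 (0.201), a class of repressors of auxin response, and Sevir.1G330000 (0.198), which matches the trehalose-phosphate phosphatase gene *TPPD* of Arabidopsis. Sevir.7G029200 (0.203) belongs to the serine carboxypeptidase family. Sevir.7G183600 (0.204) and Sevir.3G061066 (0.202) have no domain match, and Sevir.9G507200 (0.196) has a reciprocal best match in Arabidopsis and no domain match. Weights of these 10 genes to *SvMads50* ran from 0.0934 to 0.144, and all 45 pairs among them were listed, with a median weight of 0.198.

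Ranked by the smaller of their weights to *SvMads50* and *SvMads56*, the genes closest to both were Sevir.6G142000 (cyan, 0.157 and 0.161), Sevir.7G049300 (brown, 0.155 and 0.166), Sevir.5G357900 (brown, 0.155 and 0.155), Sevir.8G255750 (cyan, 0.157 and 0.153), and Sevir.3G242400 (turquoise, 0.15 and 0.149). Sevir.7G049300 has a zinc ribbon domain found in RNA polymerase subunits. Sevir.3G242400 has the iron and oxoglutarate-dependent oxygenase domain found in gibberellin oxidases and carries the term gibberellin biosynthetic process.

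Other MADS-box genes were joined to the pair more often than network genes in general. The 39 MADS-box genes of the network were those with MADS-box or K-box evidence in the annotation (38) and Sevir.6G231000, which the study's gene annotation matches to rice *OsMADS37*. Listed edges joined *SvMads50* to 22 of its 38 relatives (57.9%, against 32.9% of all genes) and *SvMads56* to 17 of 38 (44.7%, against 19.0%). No test was made of these shares, and how far they follow from the modules that hold the relatives was not tested. Of the 38 relatives of *SvMads50*, 11 were in turquoise, which holds 3909 of the 25298 network genes. Of the 38 relatives of *SvMads56*, 5 were in cyan, which holds 621. Leaving out the edge of the pair, 16 relatives were joined to both, 5 to *SvMads50* alone, none to *SvMads56* alone, and 16 to neither. All 5 magenta relatives were among the 16 joined to neither. All 11 other turquoise relatives had an edge to *SvMads50* and all 5 other cyan relatives an edge to *SvMads56*, beside 97.8% of all other turquoise genes and 97.1% of all other cyan genes.

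*SvMads34*, a *LOFSEP* gene whose rice ortholog acts with *AP1/FUL-like* genes in inflorescence meristem identity, had the highest smaller weight of all relatives. Its weight was 0.148 to *SvMads50*, the highest of all relatives, and 0.157 to *SvMads56*. The next relatives of *SvMads50* were in turquoise and had lighter edges to *SvMads56*. They were Sevir.6G230900 (0.133 and 0.0895), *SvMads37.1* (0.129 and 0.0862), Sevir.5G034800 (0.127 and 0.0697), and *SvMads5*, the other *LOFSEP* gene (0.117 and 0.0743). For *SvMads56* the highest weight was to Sevir.5G305800 in cyan, at 0.158, which had 0.0909 to *SvMads50*. After *SvMads34* came Sevir.9G565200 (0.139), the gene with the GO terms of *SvMads56*, then *SvMads50* itself, and Sevir.7G133400 (0.101), a lightgreen gene whose reciprocal best match is *AGL21* of Arabidopsis. The edge of *SvMads50* to Sevir.9G565200 was 0.0847, so that this gene was joined more heavily to *SvMads56* than to the gene with the nearby identifier.

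**Figure D4:**
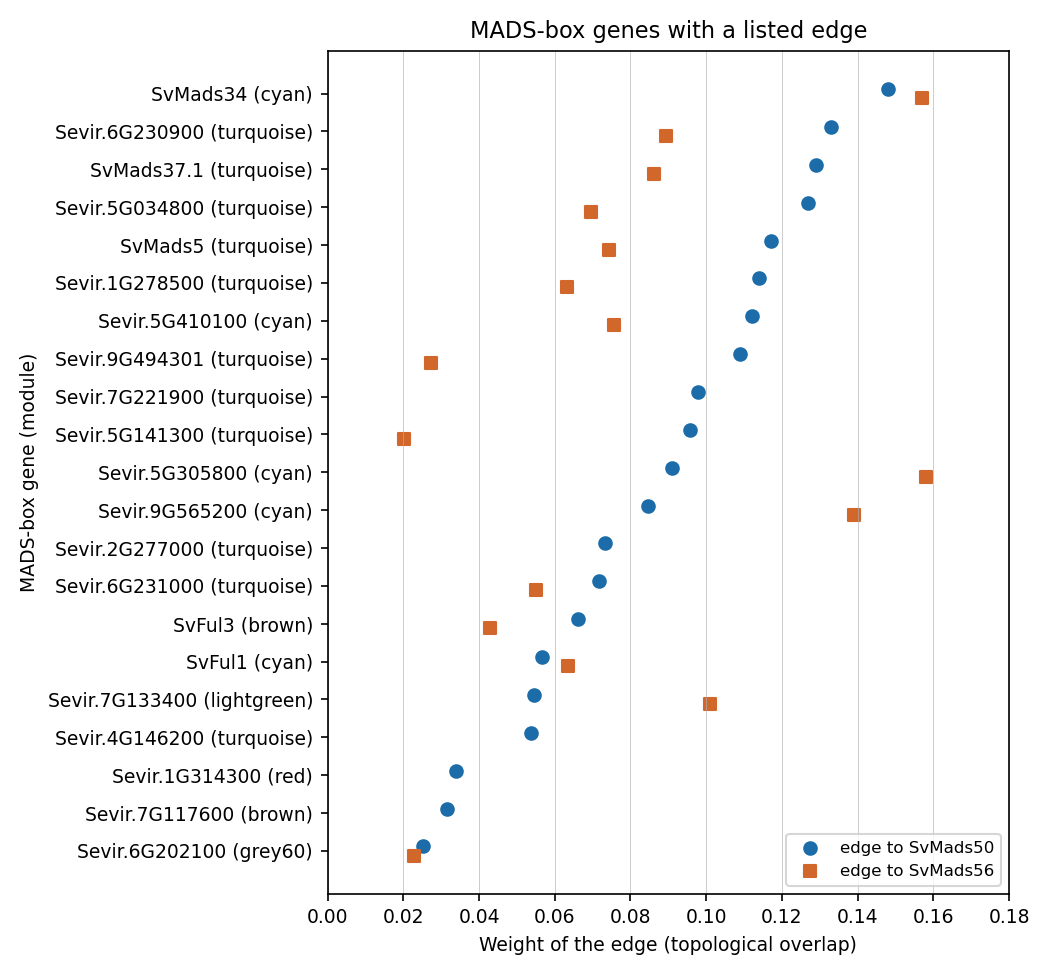
Weight of the listed edges (topological overlap) of *SvMads50* (circles) and *SvMads56* (squares) to 21 other MADS-box genes, ordered by the weight to *SvMads50*; module in parentheses, and no symbol where no edge is listed. *SvMads34* is high for both, the turquoise genes lie further right for *SvMads50*, and Sevir.5G305800, Sevir.9G565200, and Sevir.7G133400 lie further right for *SvMads56*.

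The *AP1/FUL-like* genes, which promote the floral transition and meristem identity, were split. *SvFul1* in cyan was joined to both genes, at 0.0566 to *SvMads50* and 0.0634 to *SvMads56*, and *SvFul3* in brown likewise, at 0.0661 and 0.043. *SvFul2* and *SvFul4* had no listed edge to either gene. The paper's separate regulatory network, made with a regression tree method, predicted *SvFul2* as a direct target of SvMADS56. That prediction is another measure than topological overlap and was not examined here, so that the missing edge does not bear on it. *SvFul1* had 1601 partners in all, of which 1600 were also partners of *SvMads50* and 1592 of *SvMads56*. Shares this high were not particular to *SvFul1*. Of the partners of *SvMads5* 99.7%, and of those of *SvMads37.1* 99.4%, were partners of *SvMads50*, and 99.9% of those of Sevir.5G305800 were partners of *SvMads56*. For *SvFul3* the shares were 94.5% with *SvMads50* and 70.7% with *SvMads56*. Of the 1961 partners of *SvFul2*, the gene mutated in the study, 528 (26.9%) were partners of *SvMads50* and 281 (14.3%) of *SvMads56*, which are lower shares than the 32.9% and 19.0% of all genes. None of the 5627 partners of *SvFul4* was a partner of either. Of the 4 genes listed here as *FLC-like*, the 3 with neighbouring identifiers (*SvMads37.1*, Sevir.6G230900, and Sevir.6G231000) were joined to both and *SvMads51* to neither. Among the 3, Sevir.6G231000 had the lowest weights, 0.0716 to *SvMads50* and 0.0551 to *SvMads56*.

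Some matches to Arabidopsis floral genes were singled out after their values were seen. *SvFul1*, which matches *APETALA1*, had the heavier edge to *SvMads56*, as given above, whereas the others with listed edges had the heavier edge to *SvMads50*. Of all partners shared by the pair, 81.3% were joined more heavily to *SvMads50*, so that this direction is the usual one. Sevir.1G278500, which matches *AGL6*, had weights of 0.114 to *SvMads50* and 0.0633 to *SvMads56*. Sevir.5G410100, a cyan gene matching *PISTILLATA*, had 0.112 and 0.0756. Sevir.5G141300, which matches *AGAMOUS*, a gene of stamen and carpel identity, had 0.0956 and 0.0202, its edge to *SvMads56* being just above the lowest listed weight. Sevir.2G277000, which matches *SEPALLATA3*, was joined to *SvMads50* alone, at 0.0732. Sevir.3G242100, a further match to *PISTILLATA*, and Sevir.4G289400, a match to *APETALA3*, had no listed edge to either gene.

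In a list of 25 genes of flowering, meristem determinacy, organ polarity, and branching, drawn from the study's text and gene annotation, which includes the *AP1/FUL-like*, *LOFSEP*, and *FLC-like* genes, the same 12 genes (48.0%) were joined to *SvMads50* and to *SvMads56*, beside 32.9% and 19.0% of all genes and 18.0% for both. Of all partners of *SvMads56*, 94.6% were partners of *SvMads50* too, so that common members are no result about the list. Among genes of the PEBP family and their partner FD, *SvFtl1*, the putative ortholog of the rice florigen gene *OsFTL1*, had weights of 0.124 to *SvMads50* and 0.0872 to *SvMads56*. *SvMtf1*, named after the rice gene *MOTHER OF FT AND TFL1*, had 0.141 and 0.0851. *SvFd1*, whose rice counterpart encodes a bZIP partner of florigen, and *SvZcn2*, which is related to *TFL1*, were joined to neither, and none of their partners was a partner of *SvMads50* or *SvMads56*. *SvFd1* belongs to blue, where 0.562% of all genes were partners of *SvMads50* and 0.525% of *SvMads56*. *SvZcn2* belongs to pink, where the share was 0.457% for each. A missing edge was thus usual in these modules.

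Of the 5 determinacy genes, *SvKn1*, the *knotted1* homolog that maintains meristems, and *SvFea4*, a bZIP gene limiting meristem size in maize, were joined to both, a count of 2 that is too small to be set apart from the shares of all genes. Their weights were light, 0.0367 and 0.0241 to *SvMads50* and 0.0506 and 0.0461 to *SvMads56*, and both genes belong to tan. *SvIds1*, *SvSid1*, and *SvRa2*, which act in spikelet and branch determinacy in maize, were joined to neither. *SvIds1* and *SvSid1* belong to magenta, where 1 of 1260 genes was a partner of *SvMads50* and none of *SvMads56*. *SvRa2* belongs to tan, where the shares were 43.9% and 41.2%. Of the 5 genes of polarity and branching, 1 was joined to both, a share near that of all genes. This was *SvPhb*, an adaxial HD-ZIP III homolog, which had weights of 0.0238 to *SvMads50* and 0.0337 to *SvMads56*. *SvYab15*, *SvMwp1*, *SvRoc5*, and *SvD3* were joined to neither, as was the bHLH gene Sevir.2G248500. Of these, *SvYab15* and Sevir.2G248500 belong to magenta, and *SvRoc5* and *SvD3* to blue, where almost no gene was a partner of either. *SvMwp1* belongs to red, where 9.24% of all genes were partners of *SvMads50* and 0.888% of *SvMads56*.

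For 34 GO terms of development, hormones, metabolism, and environment, the share of a term's genes joined to *SvMads50* had a median of 26.2% and was above the 32.9% of all genes for 6 terms. The share joined to *SvMads56* had a median of 16.6% and was above 19.0% for 15 terms. Flower morphogenesis had the highest share for both, with 41.1% of its 112 genes joined to *SvMads50* and 33.0% to *SvMads56*. In the order for *SvMads50*, polarity specification of the adaxial/abaxial axis followed with 36.7% and 28.3% of 120 genes, meristem initiation with 36.1% and 25.9% of 166 genes, and the auxin-activated signaling pathway with 35.4% and 22.8% of 263 genes. For *SvMads56*, photoperiodism (3 of 12 genes), maintenance of inflorescence meristem identity (24.0%), and DNA-binding transcription factor activity lay between meristem initiation and auxin signaling. The 6 flowering time terms were below the share of all genes for *SvMads50*, and for *SvMads56* all but photoperiodism were below it. This depended in part on the lightest edges. At a minimum weight of 0.04, photoperiodism reached 2.88 times the share of all genes for *SvMads56*, which was then 8.69%. Vernalization response reached 1.11 times and circadian rhythm 1.06 times, and regulation of flower development was level with the share of all genes, at 1.0 times. The vegetative to reproductive phase transition of the meristem (0.863 times) and photoperiodism, flowering (0.794 times) stayed below it. For *SvMads50*, photoperiodism reached 1.06 times at this minimum, and the other flowering time terms stayed below the share of all genes. With all listed edges, the vegetative to reproductive phase transition of the meristem, for example, reached 21.9% for *SvMads50* and 14.4% for *SvMads56* over 480 genes, and photoperiodism, flowering reached 28.2% and 16.1% over 174 genes. Vernalization response, a term that *SvMads56* itself carries, reached 25.5% and 15.1%, with *SvMads56* itself left out of its own count. DNA-binding transcription factor activity lay on different sides for the pair, with 30.2% of genes joined to *SvMads50* and 23.4% to *SvMads56*.

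Terms of plastids, starch, and ribosomes had the lowest shares. In photosystem II assembly, 22 of 182 genes (12.1%) were joined to *SvMads50* and 1 (0.549%) to *SvMads56*. In rRNA processing the shares were 11.3% and 4.4%, in thylakoid membrane organization 12.5% and 4.96%, and in starch biosynthetic process 19.1% and 7.05%. The cytokinin-activated signaling pathway was low as well, at 17.9% for *SvMads50* and 11.9% for *SvMads56*, whereas the gibberellic acid mediated signaling pathway was close to the network for *SvMads50* (33.3%) and above it for *SvMads56* (22.5%). Terms overlap in their genes, and how far these shares follow from the modules that hold the genes was not tested.

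**Figure D5:**
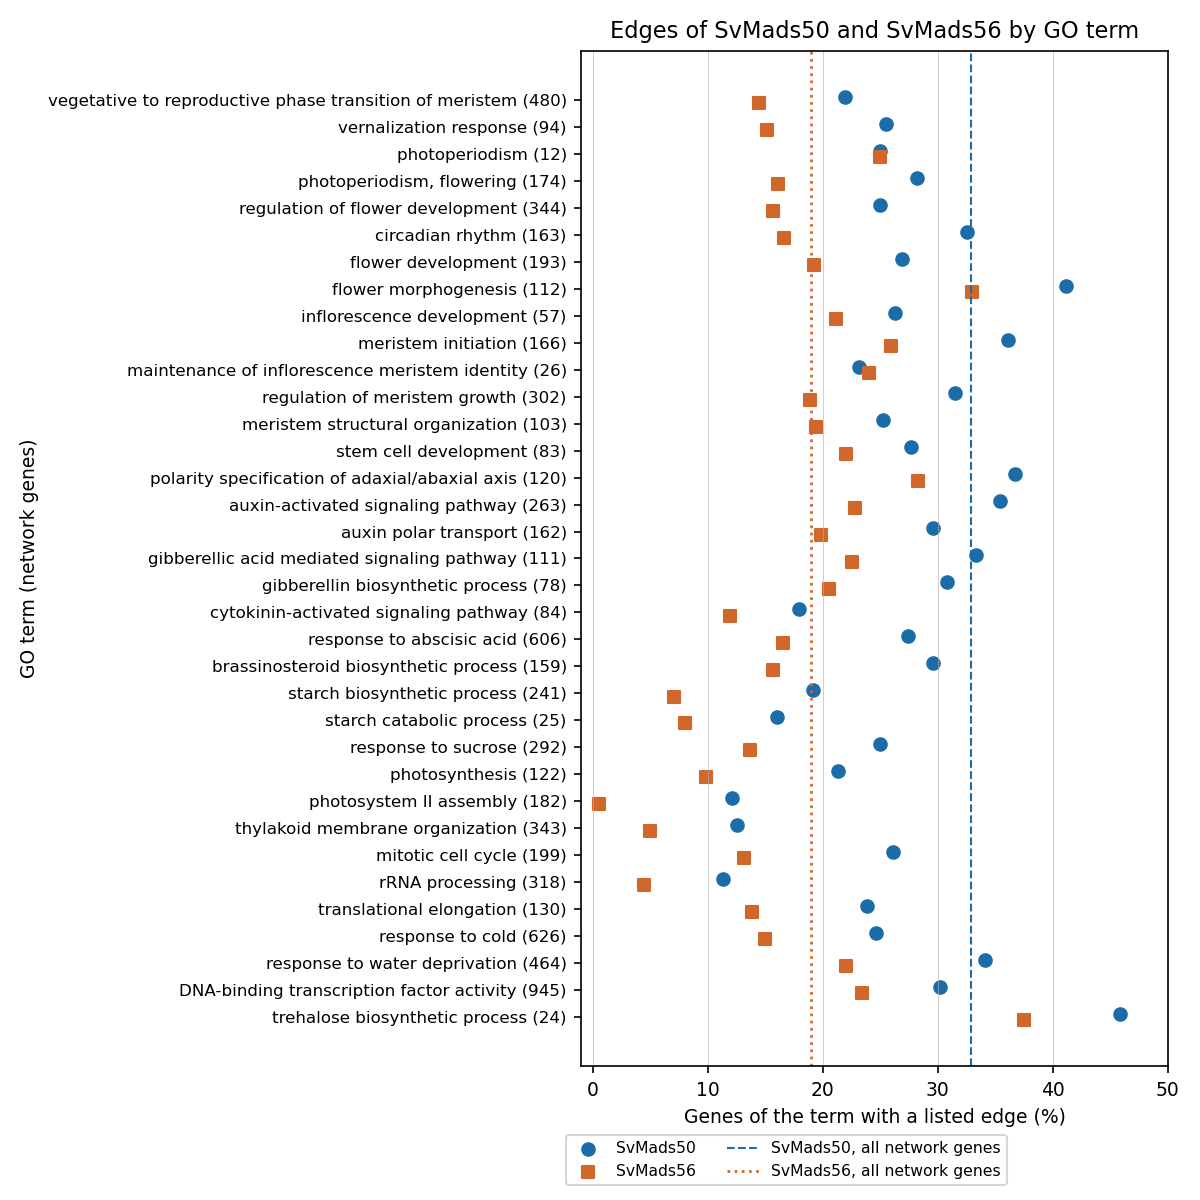
Share of the network genes of each GO term (number in parentheses) with a listed edge to *SvMads50* (circles) or *SvMads56* (squares), in percent; vertical lines give the shares over all genes, 32.9% and 19.0%. Flower morphogenesis, polarity, meristem initiation, and auxin signaling lie right of both lines, and photosystem II assembly, thylakoid organization, and rRNA processing lie far left; trehalose biosynthesis was added after its values were seen.

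Genes of trehalose metabolism, whose phosphorylated intermediate acts as a sugar signal in plants, recurred among the heavy partners of *SvMads56*. This group was chosen after its values were seen. Of 24 network genes with the term trehalose biosynthetic process, 11 (45.8%, beside 32.9% of all genes) were joined to *SvMads50* and 9 (37.5%, beside 19.0% of all genes) to *SvMads56*. These shares rest on few genes and were not tested. All 9 partners of *SvMads56* were partners of *SvMads50* as well, as were 94.6% of its partners in general. The 5 cyan genes of the term, all joined to *SvMads56* like 97.1% of cyan, had the heaviest edges to it. Besides Sevir.1G330000, they were Sevir.4G091700 (0.0927 to *SvMads50* and 0.194 to *SvMads56*), Sevir.3G180900 (0.0788 and 0.166), Sevir.2G407500 (0.0881 and 0.159), and Sevir.6G146700 (0.124 and 0.119), the only one of the 5 with the heavier edge to *SvMads50*. A trehalase-family gene, Sevir.9G356700, was at rank 14 of the partners of *SvMads56* (0.0967 to *SvMads50* and 0.193 to *SvMads56*). At rank 20 was Sevir.2G437800 (0.106 to *SvMads50* and 0.186 to *SvMads56*), an AP2/ERF gene whose reciprocal best match is Arabidopsis *PUCHI*, which acts in floral meristem identity.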

How the data were processed

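The authors quantified RNA-seq reads with Salmon (0.13.0) after trimming with cutadapt, according to the submitters' processing notes, filtered genes of low count, removed 2 wild-type libraries, and used WGCNA with biweight midcorrelation for the signed network. Deposited weights are topological overlaps, a score for each gene pair. A gene's module is a label given by the authors, and the GO annotation was made by them with GOMAP. The 678 assignments marked NOT were left out, and terms were used without their parent terms. No deposited column used here holds values of a single sample, so that no test was run. Edges were counted per gene and weights summed within and over modules, in Python 3.11.15 (pandas 2.3.3, numpy 2.4.6, and pyarrow 21.0.0), and plotted with matplotlib 3.10.9. For GO terms and own-module shares, 95% binomial intervals (scipy 1.17.1) served only to compare alternatives. The functions were checked on a simulated network.

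Genes named were both members, the 25 listed genes, the 10 heaviest partners of each, the 5 of highest smaller weight, and the 5 heaviest MADS-box relatives of each. MADS-box genes were taken from domain evidence in the GO annotation after the files were seen, since the reference table used gives no descriptions. Members and lists were chosen with earlier results of these data known. Alternatives were a minimum weight, other connectivity measures, an annotated background, and the cosine of listed weights. Differential expression was not analysed here.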

Additional observations from a re-analysis of the deposited data

How the results depend on the processing

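Limits: weights have no replicate error, unlisted pairs are unknown, all libraries are wild-type, and study and stage cannot be told apart. No paired analysis was possible because no deposited column used here holds values of single samples. At a minimum weight of 0.04, 2 times the lowest listed, *SvMads56* kept 2198 edges, 1973 of them to genes that also kept an edge to *SvMads50*, and own-module shares were 56.7% for *SvMads50* and 23.4% for *SvMads56*. With only the top 10% of all listed weights (at least 0.106), they kept 1499 and 324 edges, 169 to the same genes (11.3% of those of *SvMads50* and 52.2% of those of *SvMads56*), and own-module shares were 72.4% and 71.9%. The rank of *SvMads50* in turquoise stayed between 860 and 1320 under the 4 alternatives. The rank of *SvMads56* in cyan was between 15 and 20 under 3 alternatives and 109 by the sum of weights to all modules. By the cosine of listed weights, 0 of the 10 heaviest partners of *SvMads50* and 0 of those of *SvMads56* were among the 10 most alike genes, and 5 and 7 were among the first 100. The pair itself had a cosine of 0.731, at rank 2646 for *SvMads50* and 677 for *SvMads56*. The highest cosines were 0.99 for *SvMads50* and 0.986 for *SvMads56*. With the higher minimum weight, 4 of 34 GO terms for *SvMads50* and 5 for *SvMads56* changed side relative to all genes. For *SvMads50*, the auxin-activated signaling pathway (0.979 times the share of all genes) and response to water deprivation (0.983 times) went below it. For *SvMads56*, vernalization response (1.11 times) and regulation of meristem growth (1.22 times) went above it. For *SvMads56*, 11 of the 34 terms moved beyond their binomial interval, among them photoperiodism (2.88 times, against 1.32 with all edges), maintenance of inflorescence meristem identity (2.76, against 1.26), and starch catabolic process (0, against 0.421), as did the added trehalose term (3.36, against 1.97). At this minimum the share of all genes was 8.69%, against 19.0% with all edges, so that a term keeping its partners rises in ratio. Photoperiodism and maintenance of inflorescence meristem identity rest on few genes, 3 of 12 and 6 of 25 with all edges. Restricting the background to annotated genes changed nothing, since all 25298 network genes carry a term.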
